A study of Rattus norvegicus with 27 samples.

Results

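The genes described here are the 39 of 17315 in the cell mRNA table of cultured rat Schwann cells that stood near their starting level under a cyclic AMP analogue and were higher once it had been withdrawn. They were chosen by the measured values. With m as log2(mean CPM + 1) over the 3 libraries of a stage, where CPM is a gene's count scaled to a common library total, a gene was kept when differentiated and undifferentiated cells differed by at most 0.5 in m. It also had to lie 1 or more higher in dedifferentiated cells than in each of the other stages. All stage differences of these 39 genes are therefore a description, and where the calls of a fit over all genes are counted for them, nothing is read from the counts. The cells were bought as primary rat Schwann cells and used at passages 3 to 5. Undifferentiated cells had no dibutyryl cyclic AMP (dbcAMP), and their medium is not stated further. Differentiated cells had 1 mM dbcAMP for 72 h in 1% serum. Dedifferentiated cells had the same exposure and then 72 h without it, in medium with 10% serum depleted of exosomes, forskolin and 10 ng/mL neuregulin. Stage and medium changed together and cannot be told apart. The labels call the 3 libraries of a stage biological replicates without saying whether they were separate cultures or animals, so p-values measure only the spread between these samples.

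Schwann cells are the glia of peripheral nerves. A rise in cyclic AMP in culture stands in for contact with an axon and turns on myelin genes, and its removal lets the cells leave that state, as they do after nerve injury, when they clear myelin, lay down matrix and guide regrowing axons. Forskolin itself activates adenylyl cyclase, and neuregulin is the axonal growth factor that Schwann cells depend on. Several of the genes below belong to the enzyme set that the transcription factor NRF2 (Nfe2l2) is known to control, which neutralises quinones, electrophiles and peroxides. Others act at the cell surface, in adhesion, matrix and guidance.

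The 9 libraries held 10058735 to 16212278 estimated counts, and a floor of 3 counts, under which a level is not told from 0, corresponded to 0.185 to 0.298 CPM. The Schwann cell markers Sox10, S100b, Ngfr and Erbb3 were present in every library. Sox10, the lineage transcription factor, was at 1250 to 1480 CPM in undifferentiated, 964 to 1110 in differentiated and 1320 to 1540 in dedifferentiated libraries, and S100b at 366 to 442, 697 to 878 and 988 to 1150. Macrophage markers summed to at most 5.56 CPM, with Adgre1, Aif1, C1qa, C1qb and C1qc at 0 in all libraries. Endothelial markers summed to 18 to 28.1 CPM in dedifferentiated, 10.8 to 11.6 in undifferentiated and 9.21 to 12.3 in differentiated libraries, with the defining Cdh5 and Cldn5 at 0 throughout. Vwf alone held most of that gap, at 7.9 to 14.6 CPM in dedifferentiated libraries and at most 1.11 before, and without it the sums were 10.0 to 14.5, 10.8 to 11.6 and 8.1 to 11.5 CPM in the same order. Fibroblast markers summed to 24500 to 29200, 13000 to 16800 and 16100 to 19600 CPM in undifferentiated, differentiated and dedifferentiated libraries, nearly all of it the collagens Col1a1 and Col1a2. Without these 2 the sums were 178 to 233, 1020 to 1170 and 189 to 264 CPM, most of it Postn and Col3a1. Postn was at 115 to 166, 915 to 1070 and 31.6 to 89.9 CPM in the same stage order. Col3a1 was at 39.5 to 64.7, 88.9 to 94.9 and 104 to 226 CPM, so it was highest after withdrawal. Dcn and Pdgfra stayed at 0.884 CPM or less, with Lum and Tcf21 at 0. The part of these shifts in the results below was not tested. In such bulk samples, fewer cells of a type and less RNA per cell cannot be told apart.

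Of 91 genes that were 1 or more higher after withdrawal than at both earlier stages, 45 were already above the undifferentiated level by over 0.5 under dbcAMP, 7 were below it by over 0.5, and the remaining 39 are the genes described here. The opposite pattern, level first and then 1 or more lower, held for 11 genes. Among the 39, the smaller of the 2 rises ran from 1 to 3.91 on the log2 scale with a median of 1.38. It was under 1.5 in 26 genes and 2 or more in 5, namely Mt3, Wisp1, Mme, Cdh20 and Lrrc4. Under dbcAMP 20 of the 39 lay slightly above and 19 slightly below the undifferentiated mean. Their levels in dedifferentiated cells spanned 1.3 to 2050 CPM, with 13 genes under 5 CPM and 10 at 100 CPM or more. These CPM values are not scaled by gene length, so levels are not compared between genes.

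**Figure D1:**
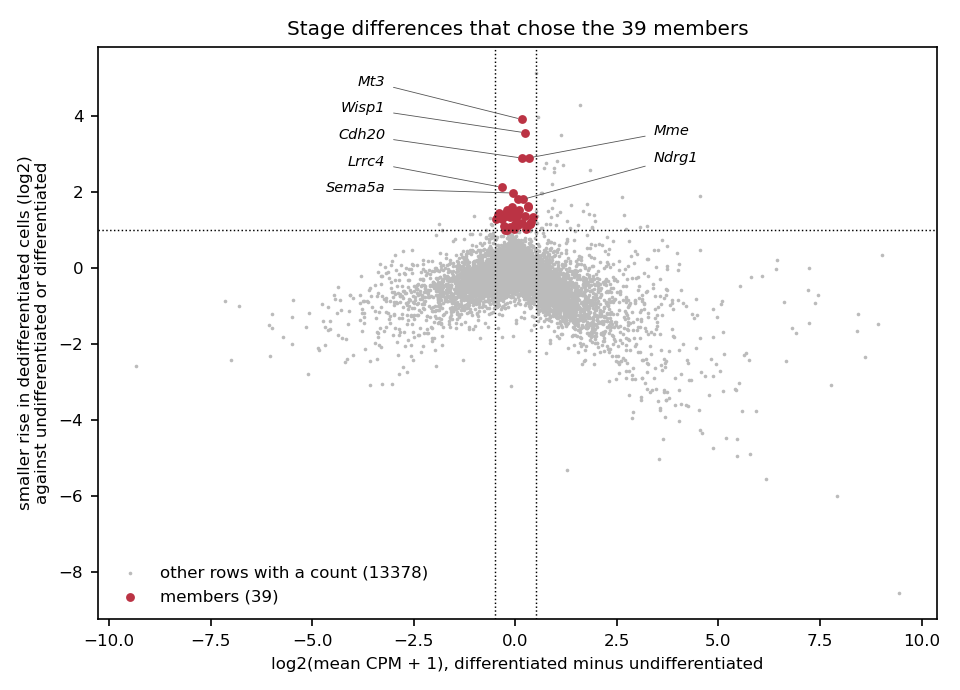
Each point is a gene with a count in at least 1 library, placed by its change under dbcAMP (x axis, log2 of mean CPM + 1, differentiated minus undifferentiated) and by the smaller of its rises after withdrawal (y axis, log2), with dotted lines at the limits of 0.5 and 1. The 39 chosen genes (red) fill the narrow strip above the horizontal line, most of them close to it, and Mt3 stands highest at 3.91.

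Genes close to the limits show how the boundary falls. Just inside the limit on the change under dbcAMP were Tmem140 (-0.47), Acss1 (-0.43) and Enpp1 (0.43). Just outside it were Fam122b (0.51), Ddn (0.51) and Me1 (0.53). Ddn, the gene of dendrin, had the largest rise of these, from 0.243 and 0.775 CPM in undifferentiated and differentiated cells to 61.3 CPM after withdrawal. At the limit on the rise against undifferentiated cells, Bmf (1.00), Gstm2 (1.01) and Mboat1 (1.02) were inside, and Ncam2 (0.99), Cited1 (0.97) and Fth1 (0.89) outside. At the limit on the rise against differentiated cells, Mboat1 (1.05) and Itgb5 (1.13) were inside, and Galnt3 (1.00 after rounding), Agfg2 (0.98) and P2rx6 (0.95) outside.

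All 3 dedifferentiated libraries lay above all 6 others for 38 of the 39 genes, against 6.56% of the 10372 genes that passed the low-count filter. The exception was Akr1b8. In the edgeR quasi-likelihood fit over all 10372 genes, 35 of the 37 members that passed the filter were called higher than in undifferentiated cells, where 16.1% of all tested genes were, and 35 were called higher than in differentiated cells, where 23.2% were. The rule used these contrasts, so nothing is read from these counts. The members not called were Txnip and Scn7a in the first contrast and Enpp1 and Scn7a in the second. Between differentiated and undifferentiated cells 59.6% of all tested genes were called in either direction, and 2 of the 37 members were, Acss1 and Mllt4, both lower under dbcAMP. With the replicate number as a block, 3 members were called in that contrast, and all 37 were called higher in both contrasts after withdrawal, Txnip, Scn7a and Enpp1 included. Tmem35 and Gucy2e did not pass the filter and were not tested.

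The redox and detoxification genes numbered 6. Mt3 encodes a metallothionein, a small cysteine-rich protein that binds zinc and copper. Its transcript was at 0, 0.192 and 0 CPM in the undifferentiated libraries (replicates 1, 2 and 3), at 0.442, 0 and 0.123 in the differentiated ones, and at 23.5, 13.1 and 14.1 in the dedifferentiated ones. The 6 earlier libraries held at most 6 counts each, so its rise of 3.91 on the log2(mean CPM + 1) scale runs from a level at or near the floor. The 250 bases before its RefSeq start (GRCr8, chr19:10856081-10856330, minus strand) are shown because metallothionein genes are known for metal response elements. Capitals mark matches to the element's core, TGCACNC 110 bases and TGCGCNC 81 and 51 bases before the start, on either strand.
Mt3: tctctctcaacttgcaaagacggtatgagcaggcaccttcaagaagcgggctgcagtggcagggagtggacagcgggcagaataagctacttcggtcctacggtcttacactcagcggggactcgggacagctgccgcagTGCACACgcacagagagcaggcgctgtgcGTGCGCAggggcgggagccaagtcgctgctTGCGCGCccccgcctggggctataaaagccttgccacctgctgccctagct
Each core was common, since TGCACNC was in 10.2% and TGCGCNC in 12.7% of 27457 rat promoter windows of this length, and the matches say nothing of binding.

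Nqo1, a quinone reductase that serves as the standard readout of NRF2 activity, was at 104, 148 and 163 CPM in undifferentiated, 142, 86.1 and 133 in differentiated, and 209, 504 and 494 in dedifferentiated libraries. The dedifferentiated libraries were all higher, but replicate 1 stood at 0.418 times the mean of the other two. Gstp1, a glutathione transferase that joins glutathione to electrophiles, had the same shape. Its values were 350, 414 and 414 CPM, then 359, 271 and 334, and after withdrawal 482, 1044 and 1036. The lowest dedifferentiated library was only 1.16 times the highest of the 6 others. The 250 bases before its RefSeq start (GRCr8, chr1:210769706-210769955, minus strand) are shown because Gstp1 was the only member whose window joined the AP-1 element TGACTCA to the antioxidant response core TGACNNNGC. Capitals mark this 9-base run, whose first base lies 61 bases before the start.
Gstp1: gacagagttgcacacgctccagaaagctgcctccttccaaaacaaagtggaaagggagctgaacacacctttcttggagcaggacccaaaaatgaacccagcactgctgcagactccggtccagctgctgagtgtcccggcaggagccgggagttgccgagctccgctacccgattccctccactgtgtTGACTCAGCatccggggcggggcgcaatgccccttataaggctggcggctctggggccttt
TGACNNNGC was in 3 of the 26 member promoters found in the RefSeq table (11.5%, Rnf152, Cebpb and Gstp1) and in 10.2% of all 27457.

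Akr1b8, an aldo-keto reductase of reactive aldehydes, was the member whose stages overlapped. It read 7.08, 2.5 and 2.62 CPM in undifferentiated, 5.45, 2.24 and 3.95 in differentiated, and 5.34, 14.9 and 15.8 in dedifferentiated libraries, so that dedifferentiated replicate 1 lay below an undifferentiated library. Gstm2, another glutathione transferase, stayed at 0.785 CPM or less before withdrawal and reached 1.10, 1.69 and 2.18 CPM after it. Reads of Gstm2, Gstp1 and Akr1b8 may be shared with close paralogs, so their counts are uncertain to that extent. Txnip, which binds and inhibits thioredoxin and is known to follow glucose supply, read 558, 164 and 531 CPM, then 503, 115 and 325, and then 874, 1280 and 1295. Its early libraries differed widely, replicate 2 being lowest at both early stages, and no dedifferentiated library overlapped them.

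The NRF2 and oxidative stress list held 1 member, Nqo1. The other genes of this list did not meet the rule in the same libraries, and 15 of these 16 passed the filter. The list was chosen with earlier results of these data known, so its counts are a description and not an independent check. Against differentiated cells 9 were called higher and 2 lower after withdrawal, with a median log2 change of 0.76 where all tested genes had -0.01. Against undifferentiated cells 6 were called higher and 3 lower, with a median of 0.31 where all tested genes had 0.02. Already under dbcAMP 7 of the 15 were called higher and 5 lower than in undifferentiated cells. Of all tested genes, 23.2% were called higher and 23.2% lower in the first of these contrasts, 16.1% and 13.3% in the second, and 31.7% and 27.9% in the third. Akr1b8, Gstm2 and Gstp1 were on another list, of cytochromes P450 and steroid enzymes. Of its 82 other tested genes, 20 were called higher and 21 lower against differentiated cells, with a median log2 change of -0.09. Against undifferentiated cells 23 were called higher and 8 lower, with a median of 0.28. The genes of the NRF2 and oxidative stress list called higher against both stages were Hmox1, Gsta1, Me1 and Gclc. Hmox1, Me1 and Gclc were already called higher under dbcAMP than in undifferentiated cells. Their log2 changes there were 0.66, 0.50 and 0.40 (edgeR adjusted p = 0.0274, 0.0272 and 0.0474). Gsta1 changed by 1.0 (SE 0.6; edgeR adjusted p = 0.173) in that contrast. Hmox1, heme oxygenase, read 6.21, 8.17 and 7.07 CPM in undifferentiated, 15.4, 9.11 and 10.6 in differentiated, and 20.9, 24.3 and 30.7 in dedifferentiated libraries. It rose by 1.12 (SE 0.21) on the log2 scale against differentiated cells (edgeR adjusted p = 0.00161) and by 1.78 (SE 0.22) against undifferentiated cells (edgeR adjusted p = 0.000198), and without replicate 3 the first of these was 0.89, at an adjusted p of 0.0618. Gsta1, a glutathione transferase, rose by 2.73 (SE 0.55) and 3.73 (SE 0.59) in the same order (edgeR adjusted p = 0.00228 and 0.000934), the first being 2.24 without replicate 2, at an adjusted p of 0.0521. Gclc, the catalytic subunit that makes glutathione's precursor, rose by 0.59 (SE 0.15) against differentiated cells (edgeR adjusted p = 0.0098). Without replicate 2 or 3 its change there was 0.36 or 0.55, at an adjusted p of 0.153 or 0.113. Osgin1, a growth inhibitor induced by oxidative stress, changed by 0.39 (SE 0.39) against differentiated cells (edgeR adjusted p = 0.43), but by 0.69 without replicate 1, at an adjusted p of 0.00402. Not all of the list moved this way. Txnrd1 was called in neither contrast after withdrawal, at 0.44 against differentiated and 0.25 against undifferentiated cells (edgeR adjusted p = 0.0634 and 0.317). Gclm rose by 1.01 against differentiated cells but was at -0.27 against undifferentiated cells (edgeR adjusted p = 0.0791). Srxn1 rose by 1.25 under dbcAMP and then changed by -0.17 (edgeR adjusted p = 0.436). Prdx1 fell by 0.28 against differentiated cells (edgeR adjusted p = 0.0443). Slc7a11, the cystine importer, and Gpx3, a secreted glutathione peroxidase, rose against differentiated cells by 2.12 (SE 0.42) and 5.13 (SE 0.38) but stayed below undifferentiated cells, where their changes were -2.62 and -2.48 (largest of the 4 edgeR adjusted p-values 0.00195). Sod3, the extracellular superoxide dismutase, fell by 0.87 against differentiated (edgeR adjusted p = 0.000574) and by 0.50 against undifferentiated cells (edgeR adjusted p = 0.0214). The second call was lost without undifferentiated replicate 2 or 3 or dedifferentiated replicate 1 (edgeR adjusted p = 0.0734, 0.0684 and 0.0553), and without replicate 2 or 3 of all stages (0.144 and 0.168), while the change itself stayed between -0.50 and -0.42.

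**Figure D2:**
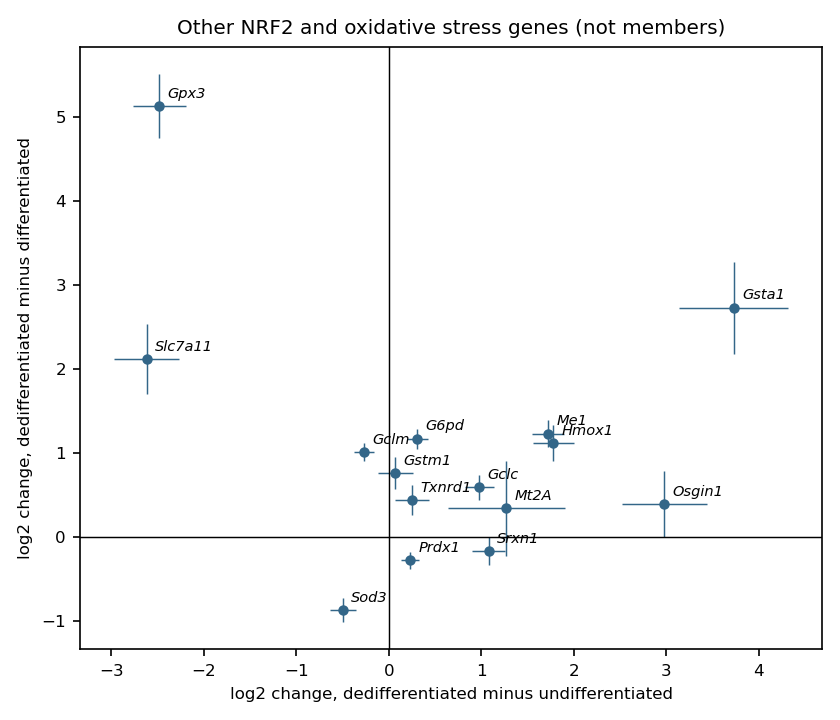
Log2 change of the 15 tested NRF2 and oxidative stress genes that are not members, dedifferentiated minus undifferentiated (x axis) against dedifferentiated minus differentiated (y axis), from the edgeR fit, with bars of 1 SE. Hmox1, Gsta1, Me1 and Gclc lie in the upper right, Slc7a11 and Gpx3 in the upper left, and Sod3 in the lower left; the axes share the dedifferentiated libraries, so the changes are not independent.

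Matrix, adhesion and guidance genes formed the largest group, with 9 members. Wisp1 (Ccn4 in RefSeq), a secreted matricellular protein known as a Wnt target, read 0.645, 0.192 and 0.0654 CPM in undifferentiated, 0.663, 0.463 and 0.494 in differentiated, and 25.0, 13.3 and 13.2 in dedifferentiated libraries. All 6 early libraries lay under 1 CPM and overlapped between their stages, the late libraries lay above them, and the smaller rise was 3.56. Col15a1, a collagen anchored to basement membranes, had late libraries close to each other. It stood at 119, 163 and 168 CPM, then 154, 129 and 188, and then 409, 426 and 404, which is 2.75 times the undifferentiated and 2.63 times the differentiated mean. Itgb5, an integrin subunit that binds vitronectin, read 102, 131 and 133 CPM, then 134, 120 and 132, and then 315, 270 and 264. The early stages overlapped and the late one stood clear, by 1.98 times at the narrowest.

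Cdh20, a classical cadherin, was at 0, 0 and 0.0654 CPM in undifferentiated, 0.368, 0.0772 and 0 in differentiated, and 8.31, 6.86 and 7.45 in dedifferentiated libraries, the early levels being at most 5 counts a library. Cadm3, a nectin-like adhesion molecule found on axons, read 9.03, 36.2 and 35.1 CPM, then 24.1, 25.6 and 36.6, and then 92.3, 80.3 and 81.0, with undifferentiated replicate 1 far below its partners. TGACTCA, the AP-1 element, was in the promoter windows of 3 of 26 members (11.5%), these 2 and Gstp1, and in 3.98% of all 27457, counting both strands. The RefSeq windows of 250 bases before the start are shown for that reason, Cdh20 at GRCr8 chr13:21515017-21515266 (plus strand) with the element 243 bases before the start, and Cadm3 at chr13:88349719-88349968 (minus strand) with it 233 bases before the start. Capitals mark the element, which in Cadm3 reads as its reverse complement.
Cdh20: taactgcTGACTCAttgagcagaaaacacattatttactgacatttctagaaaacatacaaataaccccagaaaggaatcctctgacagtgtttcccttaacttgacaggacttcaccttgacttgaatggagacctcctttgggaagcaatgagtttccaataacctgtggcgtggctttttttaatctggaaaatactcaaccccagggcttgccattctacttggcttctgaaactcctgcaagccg
Cadm3: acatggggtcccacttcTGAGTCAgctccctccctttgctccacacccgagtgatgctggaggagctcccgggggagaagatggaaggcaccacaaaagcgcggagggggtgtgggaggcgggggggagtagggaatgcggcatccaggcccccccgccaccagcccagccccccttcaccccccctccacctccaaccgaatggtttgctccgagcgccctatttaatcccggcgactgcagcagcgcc
The same letters in a promoter do not show a bound site.

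Lrrc4, a synaptic adhesion protein that binds netrin-G, read 3.06, 2.5 and 2.23 CPM in undifferentiated, 1.99, 1.16 and 2.41 in differentiated, and 19.1, 14.5 and 10.5 in dedifferentiated libraries. Sema5a, a semaphorin that steers growing axons, read at most 0.368 CPM in the early libraries and then 8.31, 1.29 and 1.43, so its mean rests on replicate 1. Without that library Sema5a was no longer chosen. Igsf9, an immunoglobulin-type adhesion protein of dendrites, reached 8.39, 3.98 and 6.17 CPM from 1.21 to 2.8 before. Mllt4 (Afdn in RefSeq), the afadin that ties nectins to actin, reached 2.71, 2.88 and 1.73 CPM. It had been at 0.403, 0.385 and 0.393 in undifferentiated and 0.0737, 0.154 and 0.123 in differentiated libraries, which did not overlap.

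Counts of called genes from the related lists are to be read beside the shares of all tested genes, 23.2% higher and 23.2% lower against differentiated cells, and 16.1% higher and 13.3% lower against undifferentiated cells. Of the 19 other tested genes of the collagen list, which holds Col4a3bp by its symbol although it is not a collagen, 9 were called higher and 3 lower against differentiated cells, and 3 higher and 8 lower against undifferentiated cells. The 3 higher than in undifferentiated cells were Col14a1, Col3a1 and Col6a2. Of 65 other cadherins, protocadherins and claudins tested, 7 were called higher and 17 lower against undifferentiated cells, and 12 higher and 11 lower against differentiated cells. For 38 other immunoglobulin-type adhesion molecules these counts were 10 and 7, then 10 and 15, and for 37 other axon guidance genes 13 and 10, then 17 and 10. None of the 20 myelin genes and none of the 25 repair and immature Schwann cell genes on the lists was a member. Of the 23 repair genes tested, 15 were called higher and 4 lower after withdrawal against differentiated cells, and 3 higher and 6 lower against undifferentiated cells.

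Cell surface enzymes and a complement inhibitor made up a further 3. Mme, neprilysin, the membrane protease that cleaves small peptides, read 20.4, 28.5 and 33.2 CPM in undifferentiated, 36.7, 27.2 and 40.8 in differentiated, and 340, 234 and 228 in dedifferentiated libraries. The late libraries were at least 5.58 times any early one, and the mean was 9.77 times the undifferentiated and 7.66 times the differentiated mean. Cd59, which blocks assembly of the membrane attack complex, read 20.9, 45.3 and 39.4 CPM, then 32.3, 41.7 and 37.1, and then 151, 127 and 125. Enpp1, which splits extracellular ATP and yields pyrophosphate, read 1.61, 15.1 and 16.4 CPM, then 9.21, 14.5 and 21.7, and then 26.2, 47.6 and 46.3, with replicate 1 lowest at each stage. Of the 10 other complement and pentraxin genes tested, 4 were called higher and none lower against differentiated cells (C1r, C2, C4a and C4b), and 1 higher and none lower against undifferentiated cells (Cd55, another surface inhibitor), where all tested genes had 23.2% called in each direction in the first contrast and 16.1% higher and 13.3% lower in the second. C4a and C4b are near-identical copies whose reads could be divided between them. C3, the central component, stayed at 0.516 CPM or less in every library and was not tested.

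**Figure D3:**
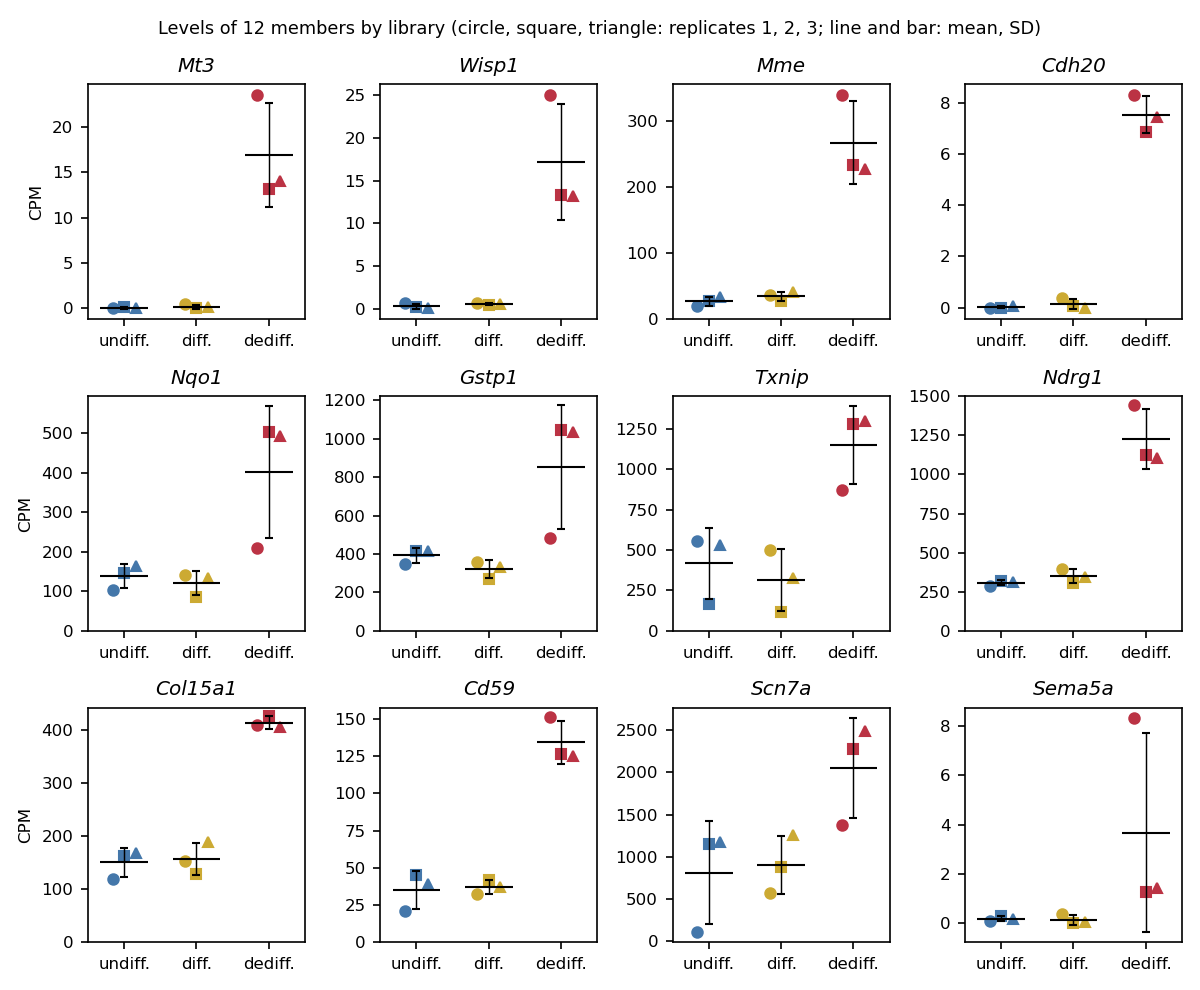
CPM of 12 of the 39 genes in each library (y axis, linear, its own scale for each gene) by stage (x axis), with the mean as a line and 1 SD as a bar (n = 3). Cd59 and Col15a1 show late libraries close to each other and well above the early ones. Mme and Ndrg1 also lie well above, with the highest late library, replicate 1, at 1.49 and 1.31 times the lowest. Nqo1 and Gstp1 have replicate 1 below the other late libraries, and Sema5a has it far above them.

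Channels, transporter subunits and membrane scaffolds gave 4 members. Scn7a, the sodium-level-sensitive channel of glia, read 113, 1154 and 1174 CPM in undifferentiated, 576, 885 and 1261 in differentiated, and 1377, 2280 and 2492 in dedifferentiated libraries. The lowest late library exceeded the highest early one by only 1.09 times, and replicate 1 was lowest at each stage. Abcc8, the sulfonylurea receptor subunit of ATP-sensitive potassium channels, stayed under 1 CPM in the early libraries and reached 3.56, 1.79 and 1.88. Tmem35 (Tmem35a in RefSeq), a chaperone of nicotinic acetylcholine receptors, reached 4.49, 0.497 and 1.35 CPM, its lowest value resting on 5 counts.

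Signalling, transcription and cell death genes gave 7 members. Ndrg1, a cytoplasmic protein that Schwann cells need to keep their myelin and that is mutated in a form of Charcot-Marie-Tooth neuropathy, read 289, 321 and 313 CPM in undifferentiated, 396, 308 and 344 in differentiated, and 1443, 1125 and 1105 in dedifferentiated libraries. Its late mean was 3.98 times the undifferentiated and 3.51 times the differentiated mean. Ndrg1 is also a textbook hypoxia gene. Of the other 16 tested genes of the hypoxia and glycolysis list, 1 was called higher and 2 lower against undifferentiated cells, and 2 higher and 4 lower against differentiated cells, where all tested genes had 16.1% and 13.3%, then 23.2% in each direction. Bnip3 was the one called higher than in undifferentiated cells, by 0.42 (SE 0.1; edgeR adjusted p = 0.00991). Vegfa read 89.4, 110 and 120 CPM, then 151, 114 and 151, and then 106, 119 and 108.

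Cebpb, a basic leucine zipper transcription factor of inflammatory and metabolic genes, read 13.2, 19.2 and 18.9 CPM, then 18.5, 13.4 and 10.6, and then 36.5, 52.0 and 53.3. Bmf, a BH3-only trigger of apoptosis, read 22.2, 23.6 and 24.3 CPM, then 18.2, 21.2 and 19.2, and then 33.4, 50.01 and 59.95. Rasgef1c, an exchange factor for Ras-like proteins, reached 111, 128 and 130 CPM from early levels of 24.1 to 52.8. Rgs6, which shortens G protein signals, and Gucy2e, a membrane guanylyl cyclase known from the retina, both lay under 1 CPM before withdrawal. They reached 1.28 to 2.54 and 0.527 to 2.37 CPM after it, both highest in replicate 1.

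The remaining 10 members were enzymes of acetyl-CoA and lipid synthesis and a mixed set. Acss1, the mitochondrial acetyl-CoA synthetase, read 39.8, 31.9 and 33.4 CPM in undifferentiated, 32.1, 20.5 and 24.6 in differentiated, and 105, 84.0 and 90.8 in dedifferentiated libraries. Mboat1, a lysophospholipid acyltransferase, reached 76.0, 58.7 and 59.3 CPM from 27.9 to 34.5. St8sia5, a sialyltransferase of gangliosides, reached 2.46, 2.98 and 1.66 CPM from 0.0961 to 0.737. The ubiquitin ligases Hecw2 and Rnf152, the cilium gene Cfap52, the beta tropomyosin gene Tpm2 and Tmem204 all ended between 1.58 and 4.41 CPM in their late libraries. Tmcc3 reached 10.3 to 13.3 CPM from 2.62 to 4.13, and Tmem140 reached 23.0 to 29.6 CPM from 5.80 to 14.3.

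**Figure D4:**
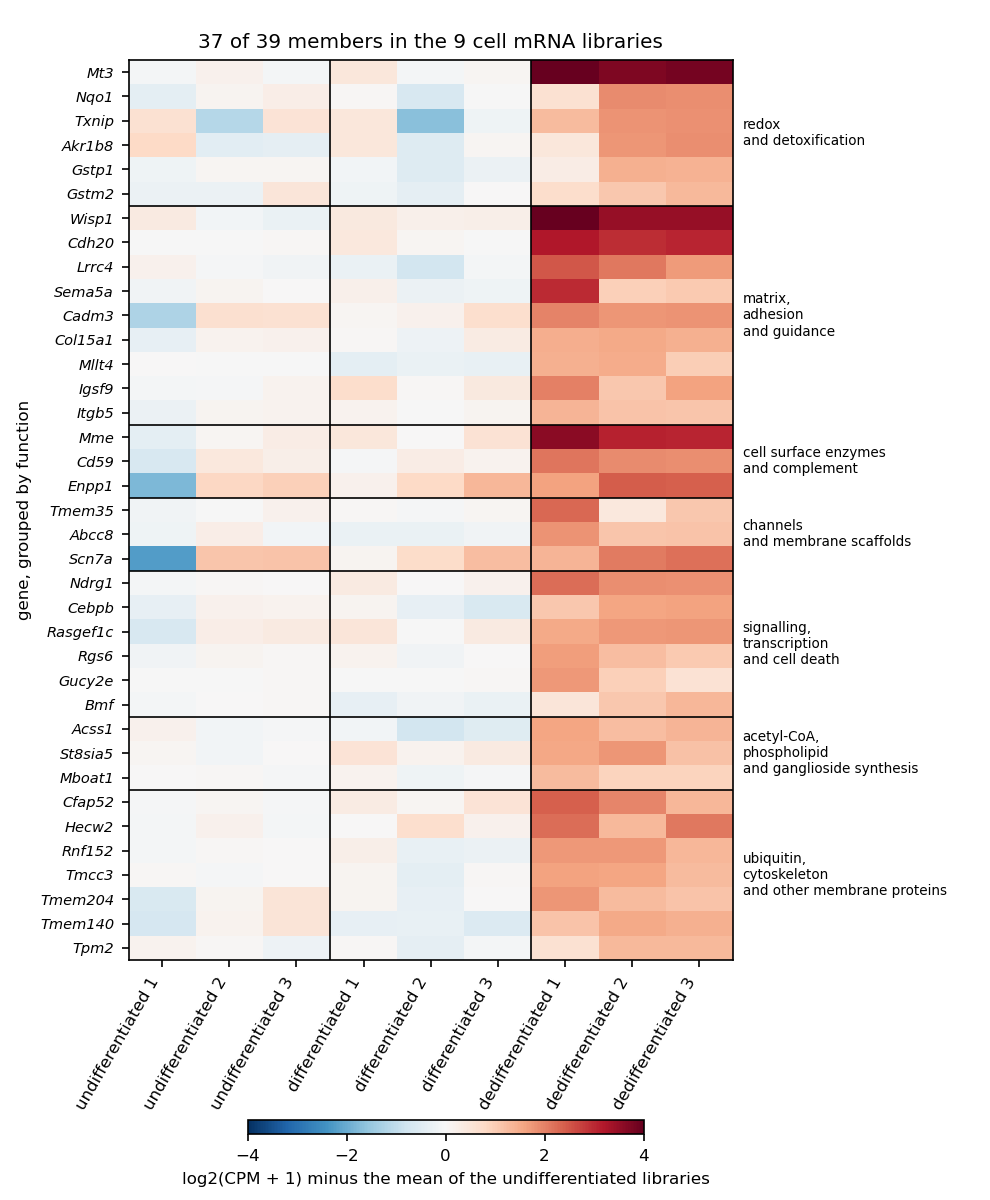
Log2(CPM + 1) of 37 of the 39 genes (rows, by function) in each of the 9 libraries (columns), minus the mean of the 3 undifferentiated libraries, in colour (blue lower, red higher). The 6 left columns are pale apart from genes such as Scn7a, Enpp1 and Txnip, whose early libraries differ, and the 3 right columns are red to differing depth. Among the palest late cells are Akr1b8, Nqo1, Gstp1, Bmf and Tpm2 in replicate 1, Tmem35 in replicate 2 and Gucy2e in replicate 3.

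The replicate 1 libraries stood apart from the others over the whole table. Pairs with replicate 1 differed by a mean chi-square of 21.6 to 27.5 per gene, and pairs of replicates 2 and 3 of a stage by 5.37 to 14.5. Among the 39 genes the late replicate 1 library was the highest of its stage in 24 and the lowest in 12, where all tested genes had 37.8% and 43.1%. Its ratio to the mean of the other late libraries ran from 0.348 for Akr1b8 to 6.11 for Sema5a. It was 1.5 or more in 12 genes and 0.67 or less in 8, where 6.87% and 5.56% of all tested genes were. The function groups differed in this respect. Of the 6 redox and detoxification genes 5 lay below 1, Mt3 being the exception at 1.73, and 8 of the 9 matrix, adhesion and guidance genes lay above 1, with Col15a1 at 0.985. Of the 15 other tested NRF2 genes 13 were lower in replicate 1, where 52.6% of all tested genes were. The function groups were formed after the values were known, and the NRF2 list was chosen with earlier results of these data known. Each ratio rests on the late library of replicate 1 alone, and the difference between the groups was not tested.

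**Figure D5:**
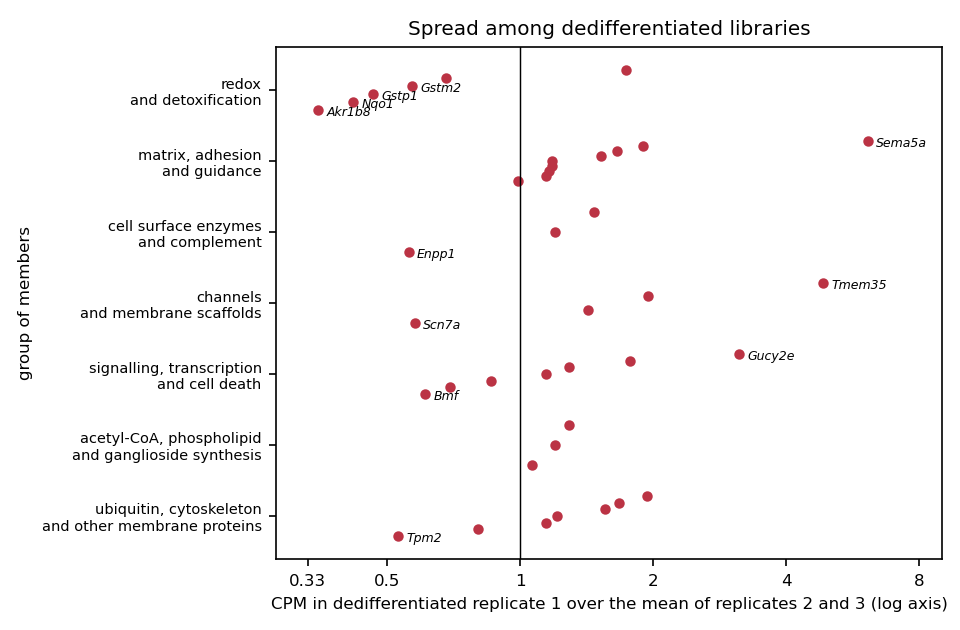
CPM in dedifferentiated replicate 1 divided by the mean of dedifferentiated replicates 2 and 3 (x axis, log scale) for each of the 39 genes, by function group (y axis). Redox genes lie to the left of 1 except Mt3, and Sema5a, Tmem35 and Gucy2e lie farthest to the right, at 6.11, 4.85 and 3.12.

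Because the rule used all 9 libraries, it was also applied to the libraries of 2 replicate numbers and read in those of the number left out, 1 library a stage and so without a test. Leaving out replicate 1, 2 or 3 chose 49, 38 and 49 genes, of which 29, 29 and 34 are among the 39. In the libraries left out, dedifferentiated cells were above both other stages for 44, 38 and 49 of these genes (89.8%, 100% and 100%), against 28.8%, 26.4% and 25.6% of all tested genes. The rise was 1 or more for 27, 24 and 26 of them (55.1%, 63.2% and 53.1%), against 1.17%, 1.21% and 0.8% of all tested genes. The whole rule held again for only 13, 20 and 20. The median smaller rise in the libraries left out was 1.23, 1.13 and 1.02, where all tested genes had -0.22, -0.24 and -0.21. Replicate 3 was sequenced under another project than the other 6 libraries, per the labels, so the 49 genes chosen without it, 34 of them among the 39, are also those of 1 project alone.

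Read by replicate number, 17 of the 39 genes were 1 or more higher than both earlier stages in all 3, 16 in 2 and 6 in 1. The 17 included Mt3, Wisp1, Mme, Cdh20, Lrrc4, Cd59, Ndrg1, Cadm3 and Col15a1. The 6 were Tmem35, Scn7a, Gucy2e, St8sia5, Mboat1 and Gstm2. The whole rule, with the limit on the change under dbcAMP, held in all 3 replicate numbers for only 7 genes. It held in 2 for 21 genes, in 1 for 9 and in none for 2, Txnip and Scn7a. Of the 39, 23 were kept whichever single library was left out, and 16 were lost at least once. In replicate 1, 2 or 3 alone, 1.17%, 1.21% and 0.8% of all tested genes had a rise of 1 or more. The rule used these same libraries, so the counts describe the 39 genes and nothing further is read from them.

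All 39 genes matched a RefSeq entry of the assembly GRCr8, 35 by symbol and 4 by synonym, and they lay on 15 chromosomes. Members were next to each other as protein-coding genes in 2 pairs, Cdh20 with Rnf152 and Wisp1 with Ndrg1. For 3 of the genes flanking these pairs the stage means were as follows. Pign, next to Rnf152, averaged 29.9, 25.4 and 21.9 CPM in undifferentiated, differentiated and dedifferentiated cells. Sla, next to Wisp1, averaged 1.27 CPM in undifferentiated cells and was listed at 0 in the others, and St3gal1, next to Ndrg1, averaged 8.05, 1.04 and 9.22 CPM. In the 26 promoter windows the full cyclic AMP response element TGACGTCA was not found, and 1.7% of all windows held it. The hypoxia core ACGTG was in 11.5% of member windows and 16.9% of all, and CCAAT in 26.9% and 34.3%. The GC box GGGCGG was in 53.8% against 32.4%, beside a median GC content of 60.4% against 52%. No match in a window says only that these letters were not there.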

How the data were processed

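The cell mRNA table was read as estimated counts per gene, deposited by the authors in a table whose name gives Salmon as the tool. The submitters' processing notes also name STAR, HISAT2, Trim Galore and DESeq2 1.26.0, with no role given. The aligner's settings, the genome build and the annotation are not given in the sources used here. Fractions made up 1.15% of the values, and rounding to whole numbers preceded each test. The whole-number counts deposited by the authors for vesicle miRNA and lncRNA were searched for the members only. Columns were matched to samples by library code and stage, and where the replicate suffix of a column disagreed with the sample title, the title was followed.

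CPM used column totals. Tests used edgeR 4.0.16 in R 4.3.3, with filterByExpr at a minimum count of 10, TMM scaling, and 1 quasi-likelihood fit of all 9 libraries with no covariate. Each of the 3 contrasts was adjusted by Benjamini-Hochberg over 10372 genes and called at 0.05. The method was checked on simulated counts. Replicate numbers come from the sample titles. Deviations from stage means correlated at 0.234 to 0.304 between same-numbered undifferentiated and differentiated libraries, all over 0.1, so the numbers pair these stages. With dedifferentiated libraries the correlations were 0.028 to 0.211, not all over 0.1. Alternatives were other scalings, offsets, limits, filters, DESeq2 1.42.0, a replicate block, the sequencing project as a covariate, and leaving out libraries. Genes were named by size of rise, level, list membership and closeness to a limit, and the other members were named after their values were seen. The members, the gene lists, the 7 function groups and 3 of the 20 motifs were chosen with earlier results of these data known. Promoter sequences, names and positions are from RefSeq, assembly GRCr8. Some genes are not reported here.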

Additional observations from a re-analysis of the deposited data

How the results depend on the processing

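The number of genes that met the rule was 39 with TMM scaling (35 shared with the 39 described) and 39 with DESeq2's size factors (34 shared). It moved most with the rule itself. An offset of 0.1 CPM in place of 1 gave 123 genes, 28 of them shared. The 11 members lost were Abcc8, Cdh20, Cfap52, Gstm2, Hecw2, Igsf9, Mllt4, Mt3, St8sia5, Tmem140 and Wisp1. Their change under dbcAMP was within the limit at the offset of 1 but not at 0.1. Mt3, Wisp1 and Cdh20 are also among the 5 genes with a rise of 2 or more. A limit of 0.25 or 1 on the change under dbcAMP gave 24 and 64, and a required rise of 2 gave 5. An offset of 5 CPM gave 34, of which only 20 were shared, and the remaining alternatives gave 37 to 49. Between differentiated and undifferentiated cells 2 members were called by edgeR, against 4 with library size alone and 0 to 7 when 1 library, or 1 replicate number of all stages, was left out. Over all tested genes 3045 were called after withdrawal against undifferentiated and 4809 against differentiated cells, but 1461 and 2913 without replicate 2, 1283 and 2606 without replicate 3, and 3599 and 5247 without replicate 1. Members called higher numbered 26 to 38 against undifferentiated and 30 to 39 against differentiated cells over all alternatives. Deviations of same-numbered libraries correlated by 0.028 to 0.304 and those of other pairs by -0.232 to 0.102. Of 6 libraries, all 6 correlated best with their own number between undifferentiated and differentiated cells, 5 between differentiated and dedifferentiated, and 4 between undifferentiated and dedifferentiated cells. With the replicate block 37 members were called higher in each contrast after withdrawal and 3 called under dbcAMP, and 3256 and 5031 genes were called over the table. The planned tests on vesicle RNA were not run, because no member had an entry there.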

Other observations

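None of the 39 genes had an entry in the vesicle lncRNA table, and none contained a miRNA gene in the RefSeq table. In that table, 4 vesicle lncRNA entries overlapped a member by position. They held 13 counts over the 9 vesicle libraries for LOC102547165 at Cdh20, 19 for LOC102554269 at Tmcc3, 29 for LOC102551073 at Col15a1 and 11 for LOC102547396 at Acss1, with at most 12 counts in any library.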
